A study of Mus musculus with 5 samples.

Results

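The axon guidance families are 4 ligand and receptor systems: semaphorins with plexins and neuropilins, Slits with Robo receptors, ephrins with Eph receptors, and netrins with DCC, neogenin and UNC5 receptors. Members were taken by symbol, from probe sets that carry a single gene symbol, with the brightest probe set kept where a gene had several. The rule found 69 genes among the 22180 genes tested: 34 ligands, 34 receptors and Plxna4os1, an RNA antisense to a plexin gene. Ephb2 and Ntn5 are not analysed here. The RNA came from mammary epithelial cells of 4-week-old mice, which were prepared from inguinal glands by collagenase digestion and centrifugation steps that remove stroma. The knockout arrays (n = 2) are labelled MMTV-Cre+/Mmp14(f/f), with Cre driven by the MMTV promoter and both Mmp14 alleles floxed. The wild-type arrays (n = 3) are labelled Mmp14(f/f), littermates that carry the floxed alleles and no Cre. Both groups are on a congenic FVB/NJ background.

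Guidance cues were named for steering growing axons, and epithelia and vessels use the same molecules when they branch. Secreted class 3 semaphorins bind neuropilins, which pair with plexins, whereas most membrane-bound semaphorins bind plexins directly, and plexins then act on small GTPases and the cytoskeleton. Slits are large secreted proteins that signal through Robo receptors. Ephrins are held in the membrane, so they act on Eph receptor tyrosine kinases of touching cells. In the mammary gland, Slit2 and Robo1 are known to restrain basal cell proliferation and branching, netrin-1 and neogenin to hold cap cells against the luminal cells of the end bud, and EphA2 to take part in ductal growth.

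Signals are log2 units of RMA-summarised probe sets, so a difference of 1 unit is a doubling. They compare arrays for a gene and not genes with each other, because probe sets differ in brightness. Over all probe sets the array medians ran from 4.24 to 4.29. Epithelial markers were bright on every array: Krt8 read 11.34 to 11.48, Epcam 9.98 to 10.10 and Krt14, a basal keratin, 8.96 to 9.29. Fibroblast and endothelial markers were also well measured, with Col1a2 at 10.51 to 10.87 and Cdh5 at 8.23 to 9.15. The targeted gene, Mmp14, read 7.98 and 7.28 in the knockout and 8.15, 8.67 and 7.75 in the wild type, so its groups overlapped (-0.56 ± 0.39, SE; limma adjusted p = 0.919). Whether its probe set lies in the floxed segment is not known here. By the array numbers in the labels, knockout 1 was numbered in sequence with wild types 1 and 2 (run 1), and knockout 2 with wild type 3 (run 2). The labels do not say what such a run means. Mmp14 was lower in the knockout within each (-0.43 in run 1 and -0.46 in run 2).

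No guidance gene was separated between the genotypes by limma's test. At an adjusted p of 0.05, 0 of 69 members were called, against a background of 0% of all genes. The same count was 0 of 69 at an unadjusted p under 0.05, a level that 1.3% of all genes passed. The smallest p of a member was 0.10, for Plxnd1 (limma adjusted p = 0.919). The groups were free of overlap with the knockout on top for 0 members (2.63% of all genes) and with the wild type on top for 1 member, Sema6a (2.8% of all genes). These counts moved with the scaling: with the arrays centred on their medians, 8 members were higher without overlap and 3 lower, as 10.6% and 6.64% of all genes then were. No member had means 1.5-fold or more apart, as 0.365% of all genes had. The mean was higher in the knockout for 42 members, lower for 26 and equal for 1, which is 60.9% higher and 37.7% lower beside 46.3% and 49.5% of all genes. That balance went to 32 higher and 34 lower without knockout 2, and to 32 and 35 without wild type 3. The median difference was 0.02, beside 0.00 over all genes.

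The precision differed between members. The 95% interval of limma's difference stayed within 1 log2 unit of 0 for 65 members and within 0.5 units for 42. Tied values narrow such intervals: 42 members had the same value on at least 2 arrays, equal to 6 decimals, and 27 had 5 different values. Of the 69, 43 had a mean signal above that of the median gene (4.42) and 52 lay above the 40th percentile (3.86). No detection calls were used, so no member was tested against background, and the median gene is not a detection limit. The 26 members at or under it are called dim here and cannot be told from background. These were Sema3a, Sema3b, Sema3d, Sema3g, Sema4f, Sema4g, Sema5b, Sema6b, Sema6c, Plxna4, Plxnb3, Slit1, Robo2, Robo3, Efna3, Efna4, Efnb3, Epha5, Epha6, Epha8, Ephb1, Dcc and Unc5a to Unc5d.

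**Figure D1:**
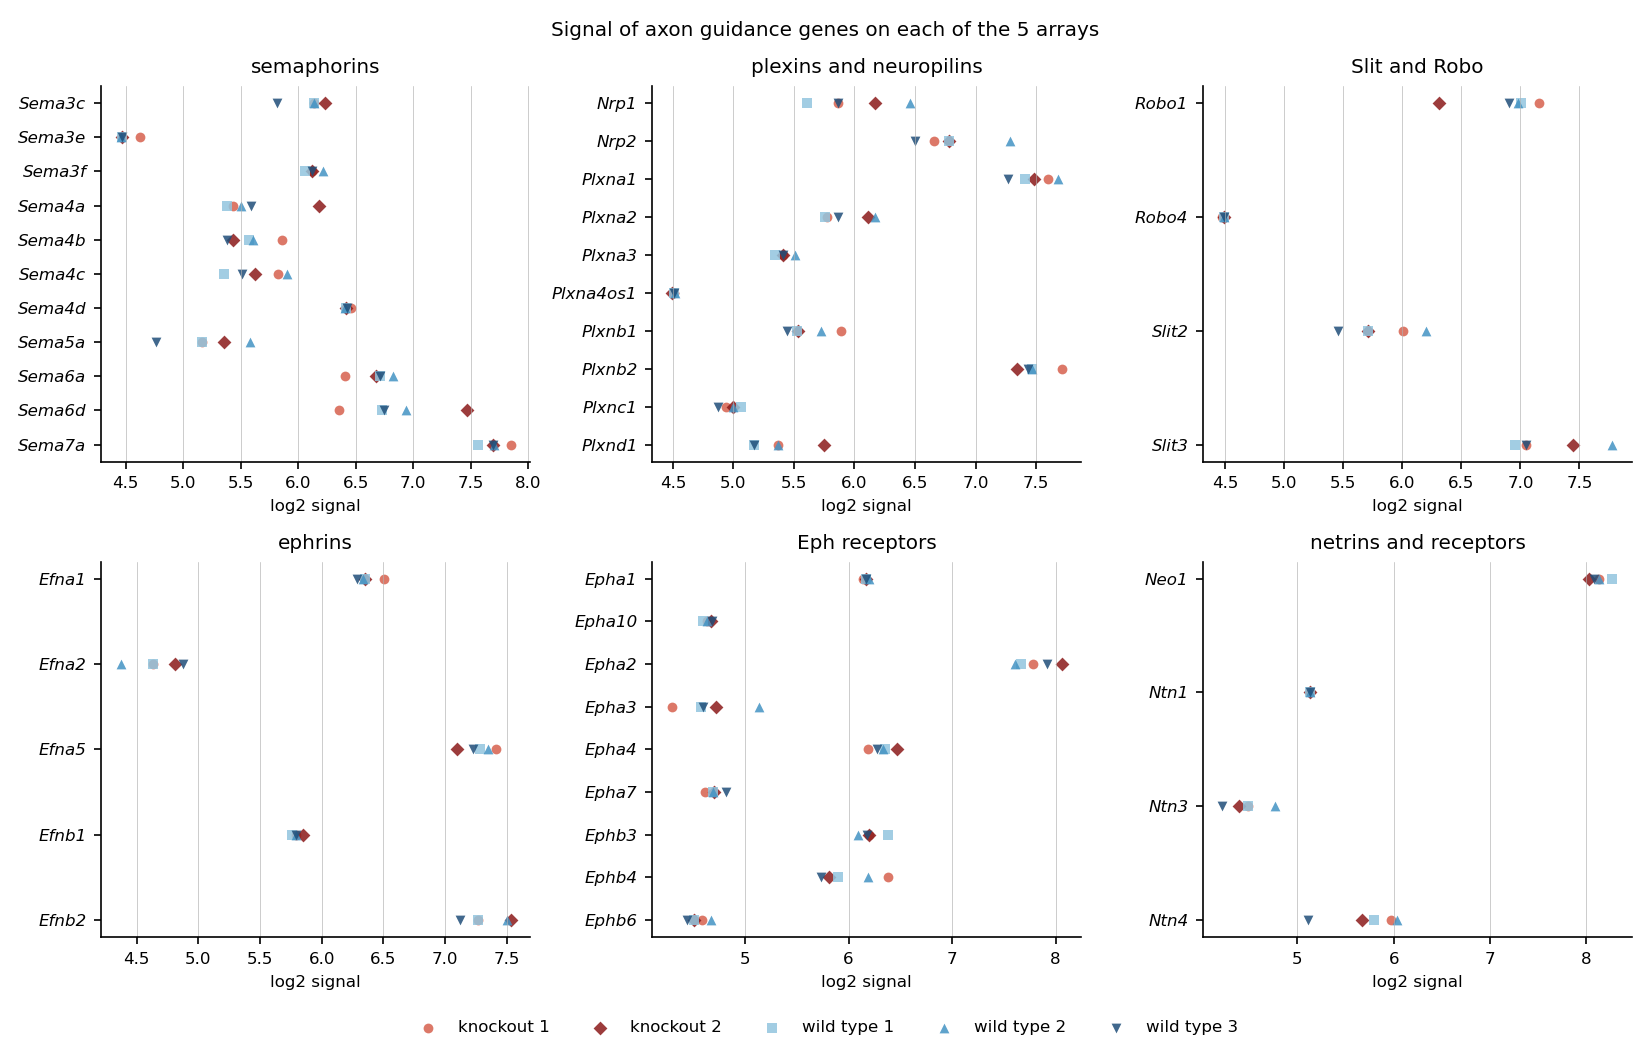
Log2 signal (x axis) of the 43 axon guidance genes above the median gene, in 6 panels by family, with 1 marker for each of the 2 knockout and 3 wild-type arrays. The genotypes overlap or tie for 42 of the genes, and only Sema6a has both knockout arrays below the lowest wild-type array.

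Semaphorins were the family with the most members on one side. Of 20 genes, 17 had a mean above and 3 a mean below that of the wild type, where 46.3% of all genes had a mean above it. The median difference was 0.09. Without knockout 2 only 8 were above and 11 below, and without wild type 3 there were 13 above and 6 below, whereas centring the arrays left 18 above. Of the 20 genes, 11 lay above the median gene and 13 had tied values. Averaged over the family, knockout 1 lay at -0.02 and knockout 2 at 0.18 relative to the wild-type mean, with wild type 2 at 0.10, wild type 1 at -0.05 and wild type 3 at -0.04. Run 1 gave a family median of -0.01 and run 2 one of 0.11. Knockout 2 lay above all wild-type arrays for 9 of the 20 and knockout 1 for 4, against 22.6% and 18.4% of all genes. Of those 9, Sema3a, Sema3b, Sema3g, Sema4f, Sema5b and Sema6b were dim.

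The class 4 semaphorins are membrane-bound. Sema4a, which acts on immune cells and on endothelium through plexins, read 5.43 in knockout 1 and 6.18 in knockout 2, against 5.38, 5.50 and 5.59 in wild types 1 to 3. Only the second knockout array stood above the wild type, and the difference of 0.32 ± 0.26 (SE) did not pass (limma adjusted p = 0.919). Within run 1 it was -0.01 and within run 2 it was 0.60. Sema4b, Sema4c and Sema4d had differences between 0.02 and 0.14. The dim Sema4g was at -0.03, the only class 4 member with a lower mean.

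Sema6a, a transmembrane ligand of A-type plexins, was the member without overlap. Its signals were 6.40 and 6.68 in the knockout and 6.71, 6.82 and 6.71 in the wild type arrays. Knockout 1 lay clearly below the others, while knockout 2 was only just below the lowest wild-type array, and the difference was -0.21 ± 0.10 (SE; limma adjusted p = 0.919). It was -0.36 within run 1 and -0.03 within run 2, and it was -0.07 without knockout 1. After quantile normalisation its groups overlapped. Sema6d, a ligand of plexin-A1 that was chosen here after its values were seen, split the knockout arrays: 6.35 in knockout 1, below all wild-type arrays, and 7.46 in knockout 2, above them. Its wild-type arrays read 6.73, 6.94 and 6.75. Of the 69 members it had the widest range over the 5 arrays, 1.11 log2 units.

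Among the secreted class 3 semaphorins, 6 of 7 had a knockout mean above that of the wild type, with a median of 0.08. Only 3 of the 7 lay above the median gene. Sema3c read 6.14 and 6.23 in the knockout and 6.14, 6.14 and 5.82 in the wild type. Knockout 1 shared its value with wild types 1 and 2, so the difference of 0.15 ± 0.13 (SE; limma adjusted p = 0.919) came from knockout 2 and wild type 3. Sema3f, a neuropilin-2 ligand, ranged from 6.06 to 6.21 with a difference of -0.01, and Sema3e, the ligand of plexin-D1, from 4.46 to 4.63. Sema7a, which is anchored by a lipid and binds integrins, read 7.84 and 7.69 in the knockout and 7.57, 7.70 and 7.69 in the wild type. Sema5a ranged from 4.76 in wild type 3 to 5.58 in wild type 2, and both knockout arrays, at 5.17 and 5.35, lay between them.

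The 10 plexin entries, which include the antisense RNA Plxna4os1 (4.49 to 4.52), had a median difference of 0.05, with 7 higher and 3 lower means. Plxnd1, a plexin of endothelium and receptor of Sema3e, read 5.37 and 5.75 in the knockout and 5.17, 5.37 and 5.17 in the wild type. Knockout 1 had the same value as wild type 2, and knockout 2 lay above all others. The difference, 0.32 ± 0.15 (SE; 95% interval -0.10 to 0.75), was the largest of the 69 members and did not pass (limma adjusted p = 0.919). It was 0.13 without knockout 2 and 0.52 without knockout 1. Beside it, the 12 endothelial markers averaged -0.43 in knockout 1 and 0.26 in knockout 2 relative to the wild-type mean, and -0.17 to 0.22 on the wild-type arrays. None of them lay at or under the median gene. Their part in the Plxnd1 signal was not tested, and in bulk RNA fewer cells of a type and less RNA per cell cannot be told apart.

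Of the B-type plexins, receptors of class 4 semaphorins, Plxnb1 and Plxnb2 were higher in knockout 1 than in knockout 2, and the dim Plxnb3 (3.75 and 3.81) was not. Plxnb1 read 5.89 and 5.53 against 5.53, 5.72 and 5.44, a difference of 0.15 ± 0.15 (SE). Plxnb2 read 7.71 in knockout 1 and 7.34 in knockout 2, while the wild-type arrays stood close together at 7.46, 7.46 and 7.43. Its 2 knockout arrays thus lay on opposite sides of the wild type. The mean difference was 0.07 ± 0.12 (SE; limma adjusted p = 0.938). Plxna1, Plxna2 and Plxna3 had differences of 0.09, 0.01 and -0.01. Plxna1 and Plxnb1 each had a second probe set, at -0.06 and -0.02, so the probe sets of both genes disagreed in sign.

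Neuropilins varied between wild-type arrays, with a range of 0.85 for Nrp1 and 0.78 for Nrp2. Nrp1, a co-receptor of class 3 semaphorins and of VEGF, read 5.87 and 6.17 in the knockout and 5.61, 6.46 and 5.87 in the wild type. The difference was 0.04 ± 0.31 (SE). Nrp2 read 6.66 and 6.78 against 6.78, 7.28 and 6.50, a difference of -0.14 ± 0.27 (SE; limma adjusted p = 0.949). For both genes wild type 2 was the highest of the 5 arrays. Within run 1 Nrp2 differed by -0.37 and within run 2 by 0.28, so its direction was not the same in both.

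Wild type 2 was also the highest array for Slit2 and Slit3. Slit2 read 6.01 and 5.71 in the knockout and 5.71, 6.20 and 5.46 in the wild type; the groups differed by 0.07 ± 0.27 (SE). Slit3 read 7.05 and 7.44 against 6.96, 7.78 and 7.05, a difference of -0.02 ± 0.33 (SE). The knockout arrays of both genes fell inside the range of the wild type, and neither gene passed (limma adjusted p = 1.000 for each).

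Robo1, through which Slit2 acts in mammary ducts, had the largest gap between the knockout arrays among the 34 receptors. It read 7.16 in knockout 1 and 6.31 in knockout 2, while the wild-type arrays lay between 6.90 and 7.01. The knockout mean was 6.74 ± 0.60 (SD, n = 2) and the wild-type mean 6.97 ± 0.05 (SD, n = 3), with a difference of -0.23 ± 0.29 (SE; limma adjusted p = 0.919). Its sign was opposite within the runs, 0.16 in run 1 and -0.59 in run 2. Beside it, the 14 luminal markers averaged 0.10 in knockout 1 and -0.20 in knockout 2, against -0.03 to 0.03 on the wild-type arrays, and 1 of the 14 was higher in knockout 2 than in knockout 1. The 11 basal markers averaged 0.05 in knockout 1 and 0.18 in knockout 2, with 6 of 11 higher in knockout 2. The 10 macrophage markers averaged 0.01 and -0.26, with 1 of 10 higher in knockout 2, and -0.27 to 0.20 on the wild-type arrays. The part of these markers in the Robo1 signal was not tested. Robo2 was dim at 3.06 to 3.33, with a difference of -0.05 ± 0.10 (SE). Robo4, an endothelial Robo, read 4.47 in knockout 1 and 4.49 on the other 4 arrays.

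Ephrins showed small differences in both subfamilies. Efna1, a high-affinity ligand of EphA2, read 6.50 and 6.35 in the knockout and 6.35, 6.34 and 6.28 in the wild type. Knockout 2 shared its value with wild type 1, and the difference was 0.10 ± 0.06 (SE; 95% interval -0.06 to 0.27; limma adjusted p = 0.919). Efnb2, the ephrin of arterial endothelium and a partner of EphB4, read 7.27 and 7.53 against 7.27, 7.50 and 7.12, a difference of 0.10 ± 0.16 (SE). Efna2 read 4.63 and 4.81 against 4.63, 4.37 and 4.87, a difference of 0.10 ± 0.18 (SE). Efna5 read 7.41 and 7.10 in the knockout and 7.28, 7.34 and 7.22 in the wild type, with 1 knockout array above and 1 below all wild-type arrays. Efnb1 stayed between 5.76 and 5.85.

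Of the 13 Eph receptors, 8 had a higher and 5 a lower knockout mean, with a median difference of 0.0046. The dim Ephb1, counted as lower at -0.03, had a second probe set of nearly the same mean signal (3.65 for each) at 0.07. Epha2 read 7.78 and 8.06 in the knockout and 7.67, 7.61 and 7.91 in the wild type. Wild type 3 lay above knockout 1, so the groups overlapped. The difference was 0.19 ± 0.14 (SE; 95% interval -0.22 to 0.59; limma adjusted p = 0.919), and it was 0.14 within each run. Without knockout 2 it was 0.050 and without knockout 1 it was 0.33. Epha2 and its ligand Efna1 were both higher in the mean, but different knockout arrays were highest for them, knockout 2 for the receptor and knockout 1 for the ligand.

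Epha3, a receptor of A-type ephrins, read 4.29 and 4.72 in the knockout and 4.57, 5.14 and 4.59 in the wild type, giving -0.26 ± 0.26 (SE; limma adjusted p = 0.919). It was the most negative difference of the 69; knockout 1 was the lowest array and wild type 2 the highest. Within run 2 the difference was 0.13. Ephb4, which binds ephrin-B2 and marks venous endothelium, read 6.38 and 5.81 against 5.90, 6.19 and 5.73, a difference of 0.15 ± 0.24 (SE). Its ligand Efnb2 was higher on the other knockout array. Epha4 read 6.18 in knockout 1 and 6.47 in knockout 2, outside the wild-type range of 6.28 to 6.35 on both sides. Epha1 and Ephb3 stayed within 0.03 of equal means.

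Of the 9 netrins and netrin receptors, 3 had a higher, 5 a lower and 1 an equal mean. Ntn1, the netrin of the end bud, read 5.13 on all 5 arrays, the same to 6 decimals, and 931 of the 22180 genes were likewise constant. A value of this kind carries no information on a difference. Its receptor Neo1, neogenin, read 8.13 and 8.03 in the knockout and 8.27, 8.13 and 8.07 in the wild type, giving -0.08 ± 0.08 (SE; 95% interval -0.30 to 0.14; limma adjusted p = 0.919). Ntn4, a laminin-binding netrin of basement membranes, read 5.97 and 5.67 against 5.79, 6.03 and 5.11. Wild type 3 was the low array, and the difference of 0.18 ± 0.33 (SE) had the 95% interval -0.78 to 1.13. Ntn3 read 4.49 and 4.39 against 4.49, 4.76 and 4.22, a difference of -0.05 ± 0.18 (SE). Unc5b, a netrin receptor of endothelium, had a mean below the median gene and read 4.43 and 3.97 against 4.25, 4.51 and 3.82, a difference of 0.01 ± 0.28 (SE). Dcc and the other 3 Unc5 genes were dim, and their differences lay between -0.03 and 0.02.

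**Figure D2:**
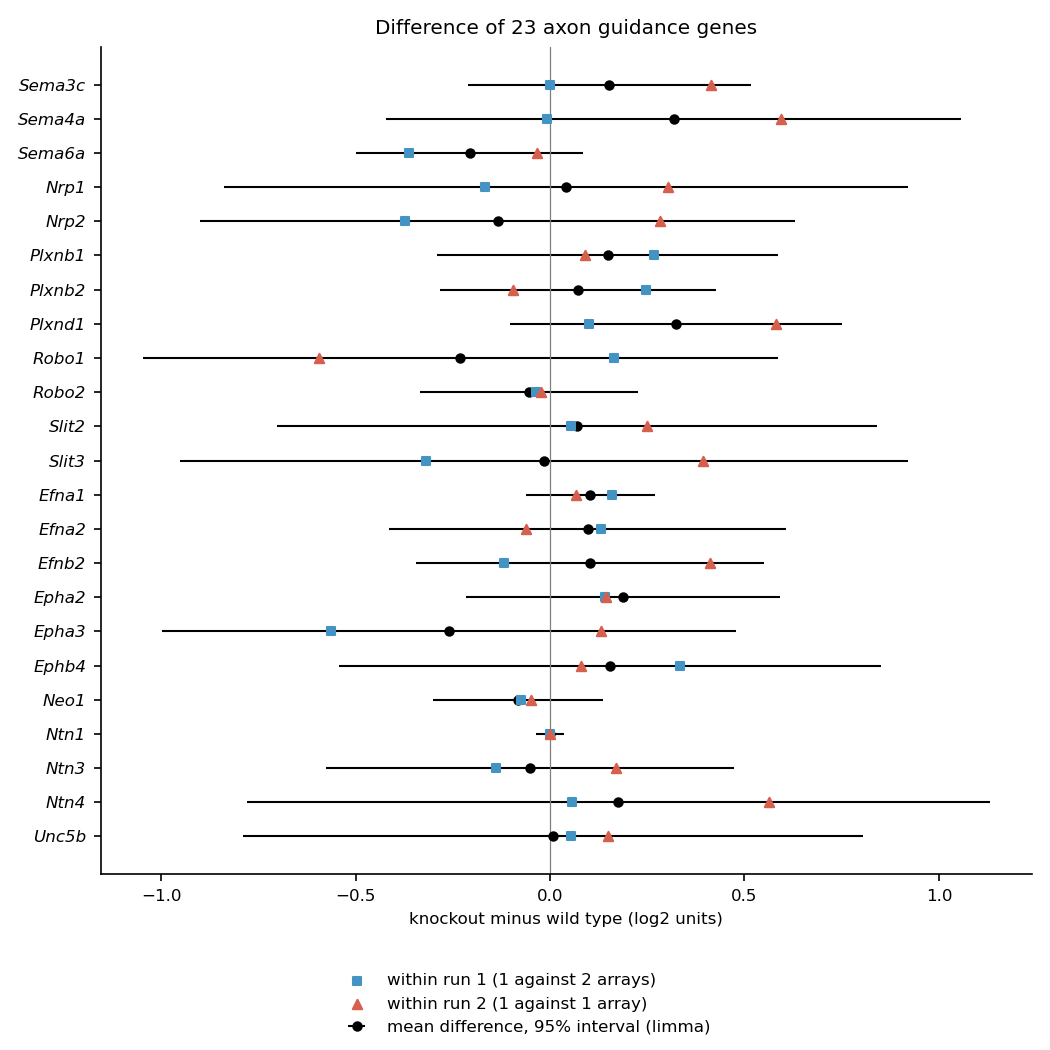
Knockout minus wild type in log2 units (x axis) for the 23 axon guidance genes named by rule, with limma's 95% interval as a bar (2 knockout and 3 wild-type arrays). Squares give the difference within run 1 and triangles within run 2; every bar crosses 0, and for 10 of the 23 genes, among them Robo1, Slit3, Nrp2 and Epha3, the square and the triangle lie on opposite sides of 0.

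The knockout arrays themselves differed. They lay on the same side of the wild-type mean for 37 of 69 members (53.6%, beside 59% of all genes). Knockout 1 was below and knockout 2 above all wild-type arrays for Epha4, Sema6b and Sema6d, and the reverse held for Efna5, Plxnb2 and Robo1. These are 4.35% of the members in each direction, where all genes gave 6.37% and 7.52%. The knockout arrays were 1.5-fold or more apart for 4 members, Robo1, Sema3b, Sema4a and Sema6d, which is 5.8% beside 4.78% of all genes. Sema3b read 4.08 in knockout 1 and 4.78 in knockout 2, against 4.00, 4.42 and 4.31 in the wild type.

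With a single knockout array in the fit, limma called a few members. Without knockout 1, Robo1 was lower by 0.66 in knockout 2 (limma adjusted p = 0.0420) and the dim Sema4f was higher by 0.26 (adjusted p = 0.0199). At the same level 7.92% of all genes were called. Without knockout 2, Plxnb2 was higher by 0.26 in knockout 1 (limma adjusted p = 0.0494) and Sema3e by 0.16 (adjusted p = 0.0448), beside 3.76% of all genes. The lone array is assumed there to vary like the wild type, and 3 of these 4 genes had tied values. No member was called from both knockout arrays, and Robo1 and Plxnb2 differed from the wild type in opposite directions on them.

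**Figure D3:**
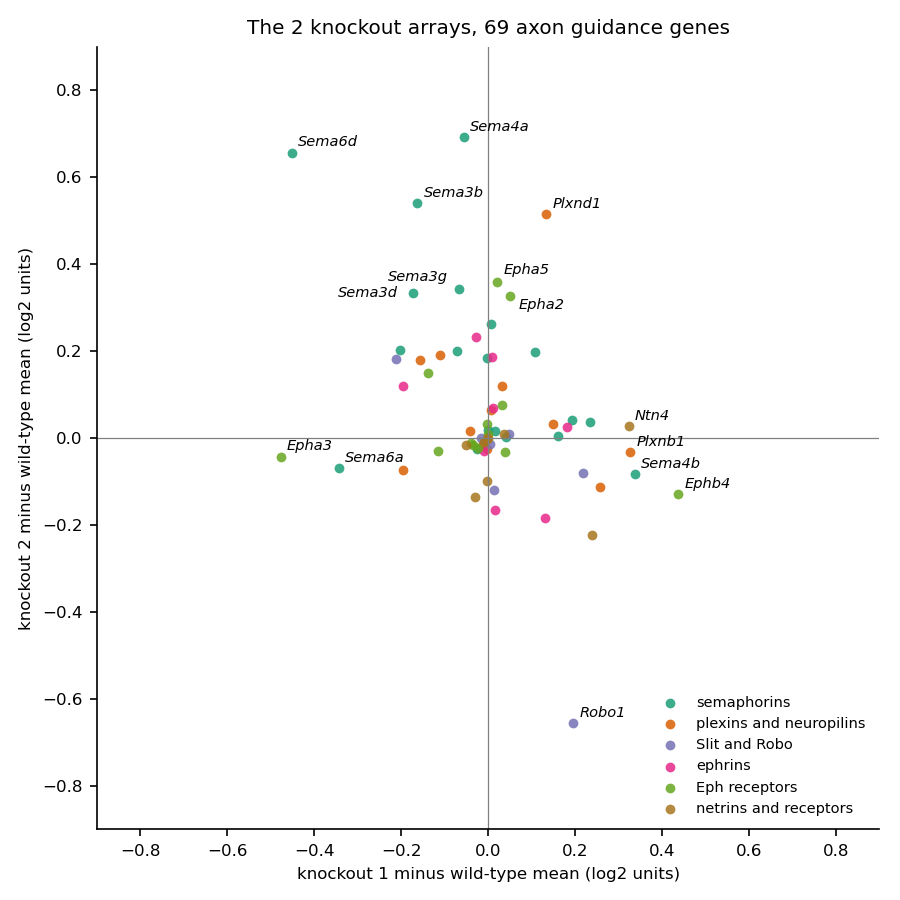
Each of the 69 axon guidance genes by its signal in knockout 1 (x axis) and knockout 2 (y axis), both minus the mean of the 3 wild-type arrays in log2 units; genes more than 0.3 units from 0 on an axis are named. Sema6d and Robo1 have opposite signs on the axes, and no gene lies beyond 0.3 on both axes with the same sign.

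The median range over the wild-type arrays was 0.18 for the members and 0.12 for all genes. The median size of the genotype difference was 0.053 and 0.052. A range over single arrays and a difference of means are unlike measures. Wild-type arrays were 1.5-fold or more apart for 8 members (11.6%, beside 4.15% of all genes): Nrp1, Nrp2, Ntn4, Sema3d, Sema5a, Slit2, Slit3 and Unc5b. Wild type 2 was the highest wild-type array for each of them. Over the 43 members above the median gene, wild type 2 was the highest of all 5 arrays for 17 (39.5%, beside 19.3% of all genes above it), and wild type 3 was the lowest for 14 (32.6%, beside 18.9%). Wild type 1 was the lowest for 11 (25.6%, beside 13.4%). Knockout 2 was the lowest for only 5 (11.6%, beside 32.3%), so the knockout arrays also departed from the background.

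Fibroblast markers moved with wild types 2 and 3, and other lists did so in part. The 12 fibroblast markers averaged 0.41 in wild type 2 and -0.30 in wild type 3 relative to the wild-type mean, and 0.11 in each knockout array. These equal averages hide splits between the knockout arrays, with 7 of 12 higher in knockout 2. Col1a1 read 8.13 in knockout 1 and 8.68 in knockout 2, whereas Pdgfra read 7.47 and 6.33. Among the wild-type arrays all 12 fibroblast markers were highest in wild type 2 and 9 were lowest in wild type 3. None lay at or under the median gene. Endothelial markers were at 0.22 in wild type 2, with 11 of 12 highest there among the wild-type arrays, and at -0.17 in wild type 3. All 12 were higher in knockout 2 than in knockout 1. Pericyte markers averaged -0.29 in knockout 1 and 0.27 in knockout 2, with all 8 higher in knockout 2. They were at 0.17 in wild type 2 and -0.05 in wild type 3, and 3 of the 8 lay at or under the median gene. Schwann and nerve markers averaged -0.01 in knockout 1 and 0.40 in knockout 2, with 6 of 7 higher in knockout 2. Of these, 4 of the 7 lay at or under the median gene. Basal epithelial markers averaged 0.05 and 0.18 in the knockout and -0.11, 0.22 and -0.11 in the wild type. Macrophage markers averaged 0.01 and -0.26 in the knockout, lymphocyte markers -0.24 and -0.23, and adipocyte markers -0.08 and 0.21. Only 4 of the 8 adipocyte markers were higher in knockout 2 than in knockout 1. In these 3 lists, 2 of 10 macrophage, 4 of 9 lymphocyte and 3 of 8 adipocyte markers lay at or under the median gene. On wild types 1 to 3 macrophage markers were at 0.08, 0.20 and -0.27, and lymphocyte markers at 0.20, -0.03 and -0.17. The part of these markers in the guidance signals was not tested.

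**Figure D4:**
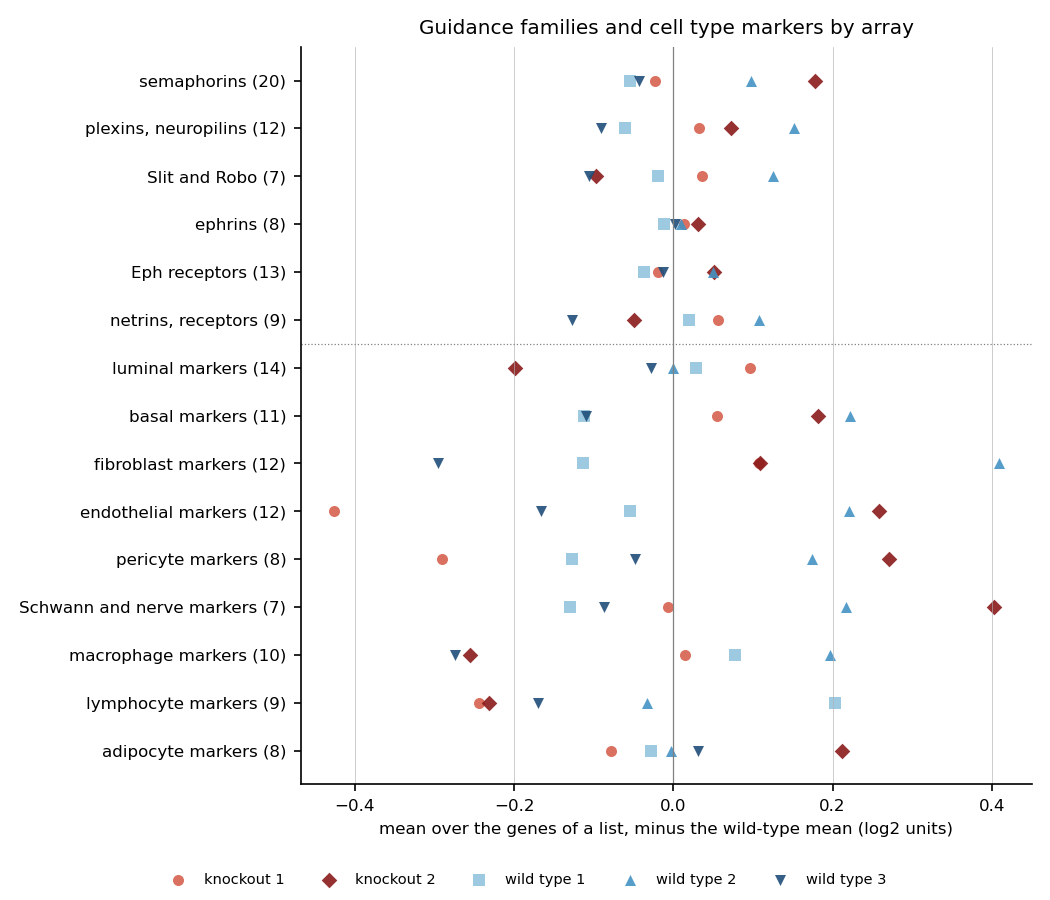
Mean over the genes of a list on each array, minus the mean of the 3 wild-type arrays, in log2 units (x axis), for the 6 guidance families (top) and 9 lists of cell type markers (bottom); the number of genes measured is in brackets. Semaphorins are highest in knockout 2 (0.18), Slit and Robo genes, plexins and neuropilins in wild type 2 (0.13 and 0.15), and endothelial markers run from -0.43 in knockout 1 to 0.26 in knockout 2.

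Other genes of guidance signalling showed no called difference. Of 45 measured genes that relay these receptors to the cytoskeleton, 21 had a higher and 22 a lower mean, the median difference was 0.00, and limma called 0. Only 1 of them, Arhgap39, passed an unadjusted p of 0.05, beside 1.3% of all genes. Arhgap39 and Farp2 were higher and Mical3 lower in the knockout without overlap, beside 2.63% and 2.8% of all genes, so these counts lie near the background. Arhgap39, a GTPase-activating protein that relays Slit and Robo signals, read 6.09 and 6.08 in the knockout and 5.83, 5.98 and 5.94 in the wild type (0.17 ± 0.06, SE; limma adjusted p = 0.919). Mical3, of the MICAL oxidases that act on actin, read 6.17 and 6.23 against 6.38, 6.42 and 6.27, lower on both knockout arrays (-0.15 ± 0.06, SE; adjusted p = 0.919). Mical1, which acts downstream of plexins, read 5.39 and 5.50 against 5.36, 5.39 and 5.31, a difference of 0.09 ± 0.05 (SE).

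Of 20 further guidance ligands, receptors and co-receptors, 11 had a higher and 9 a lower mean, and 0 passed limma's test or an unadjusted p under 0.05. The median difference was 0.01. Cdon, a Hedgehog co-receptor that also pairs with neogenin, read 5.80 and 5.92 against 6.07, 5.92 and 5.98 (-0.13 ± 0.06, SE). Knockout 2 had the value of wild type 2. Lrig2, a partner of neogenin, read 5.78 and 5.94 against 5.94, 6.02 and 5.83 (-0.07 ± 0.09, SE). Rgmb, a ligand of neogenin, read 6.61 and 6.70 against 6.62, 6.66 and 6.58 (0.03 ± 0.04, SE). Each of these 3 overlapped between the genotypes (limma adjusted p = 0.919 for each).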

How the data were processed

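Signals were deposited by the authors on a log2 scale, 1 value per probe set and array; per the submitters' processing notes, RMA and limma were used (no versions named). No array model or genome build was named, and coordinates are therefore left out. Of 41345 probe sets, 23521 carry 1 symbol in the platform annotation, 1814 several and 16010 none listed. The brightest probe set per gene left 22180 genes; 3 members had more than 1. Differences were fitted across all genes with limma 3.58.1 in R 4.3.3 (lmFit, eBayes, two-sided, no covariate, Benjamini-Hochberg adjustment). The procedure was tried on simulated data with changes larger than any member's difference. Whether it would call differences of the sizes seen here was not tested. SE and intervals are limma's moderated ones. The number of arrays limits the precision. Labels call the samples biological replicates, without saying whether an array holds 1 mouse or several.

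Members and lists were chosen with earlier results of these data known. Array values are given for members without overlap above the median gene, for the 3 largest differences above it in each of 6 families, for 12 genes with a known mammary part, and for up to 3 genes per list of other guidance genes; genes outside this rule were chosen after their values were seen. Alternatives were another normalisation, probe set rule, filter, spread model, blocks for the run and the replicate number, and leaving out each array.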

Additional observations from a re-analysis of the deposited data

How the results depend on the processing

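The count of members called by limma was 0 under each alternative that kept all 5 arrays, within run 1 and with a wild-type array left out; it was 0 to 2 with 1 array left out, 2 without either knockout array. Replicate numbers 1 and 2 are shared by the groups but nothing says they pair the mice (correlations of deviations 0.25 and -0.04); with the replicate block 0 members were called and the median difference was -0.00034. The median difference moved by less than the SD of the wild-type array means (0.081) in all alternatives run. That SD is larger than the median difference itself (0.015), so this does not show a stable value. The sign of the median difference turned with the replicate block and without wild type 3 (-0.00034 for each). These 2 settings give the same differences, because wild type 3 is the only array with replicate number 3. Members without overlap, 0 higher and 1 lower, became 6 higher after quantile normalisation, 8 and 3 after median centring, 13 and 16 within run 1 (1 against 2 arrays), and 2 to 19 and 1 to 11 with 1 array left out. Settings with fewer arrays separate more genes by construction. Each member newly free of overlap under a scaling had tied values as deposited, and the cause was not tested. The share of all genes without overlap rose under the scalings too, to 9.3% higher and 6.48% lower after quantile normalisation. Blocks, array weights and the intensity trend do not alter these counts, and run 2 has 1 array a group.

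Of 32 named differences, 19 turned their sign in at least 1 alternative and 13 did not. The 13 include Ntn1, whose difference of 0 had no sign to turn. It was 0.010 after quantile normalisation and 0.0070 after median centring. Array weights gave 0.026 for Slit3 and -0.023 for Unc5b. The replicate block gave -0.015 for Nrp1, -0.092 for Ntn4, -0.10 for Slit2 and -0.18 for Unc5b. Signs turned within run 1 for Efnb2 (-0.12), Nrp1 (-0.17), Rgmb (-0.029), Robo1 (0.16), Sema4a (-0.0074) and Sema6d (-0.48), and within run 2 for Efna2 (-0.063), Epha3 (0.13), Lrig2 (0.11), Nrp2 (0.28), Ntn3 (0.17), Plxnb2 (-0.095) and Slit3 (0.39). With 1 array left out the ranges were -0.031 to 0.22 for Efna2, -0.029 to 0.23 for Efnb2, -0.13 to 0.44 for Ephb4, -0.16 to 0.010 for Lrig2, -0.14 to 0.28 for Nrp1, -0.31 to 0.080 for Nrp2, -0.19 to 0.085 for Ntn3, -0.092 to 0.37 for Ntn4, -0.032 to 0.33 for Plxnb1, -0.11 to 0.26 for Plxnb2, -0.0093 to 0.078 for Rgmb, -0.66 to 0.20 for Robo1, -0.12 to 0.020 for Robo2, -0.056 to 0.69 for Sema4a, -0.45 to 0.66 for Sema6d, -0.10 to 0.27 for Slit2, -0.21 to 0.24 for Slit3 and -0.22 to 0.24 for Unc5b. Epha3, whose sign turned within run 2, ran from -0.48 to -0.043 with 1 array left out. Among members whose sign did not turn, the ranges were -0.34 to -0.069 for Sema6a, 0.046 to 0.21 for Sema3c and 0.13 to 0.52 for Plxnd1. They were 0.026 to 0.18 for Efna1, 0.050 to 0.33 for Epha2 and -0.13 to -0.027 for Neo1.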
